A study of Mus musculus with 64 samples.

Results

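Cold-induced and heat shock genes were followed in the nucleus accumbens (NAc) and prefrontal cortex (PFCx) of mice after 6 psychotropic drugs. The 10 genes were chosen by name from the isoform tables, where they held 57 of 112714 transcripts and 10 of 46686 gene symbols. The cold-induced pair was Cirbp and Rbm3, with 18 transcripts. The heat shock members were Hspa1a, Hspa1b, Hspa8, Hspa5, Hsph1, Dnajb1, Hsp90aa1 and Hspb1, with 39 transcripts. All 10 genes passed the filter on low values.

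Cells answer a rise in temperature or misfolded protein through heat shock factors, which bind heat shock elements and raise the transcription of chaperones such as Hspa1a, Hspa1b, Hsph1 and Dnajb1. Mild cooling works in the other direction, and the RNA-binding proteins Cirbp and Rbm3 are induced by it. Hspa5, also known as BiP, is the chaperone of the endoplasmic reticulum and belongs to a separate program, the unfolded protein response. Many psychotropic drugs are known to shift body temperature in rodents, and both programs respond to temperature or to protein load.

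The 64 libraries came from adult male C57BL/6N mice aged 8–10 weeks that received 1 intraperitoneal injection and were killed 2 h later. The doses were 1 mg/kg haloperidol and 0.5 mg/kg risperidone (antipsychotics), 2 mg/kg methamphetamine (a psychostimulant), 20 mg/kg mianserin and 16 mg/kg venlafaxine (antidepressants), and 20 mg/kg ketamine (a psychotomimetic). Each drug had 4 libraries in each tissue, and saline had 8, made up of 4 in saline set I and 4 in saline set II. The vehicle of both antipsychotics was saline to which a drop of HCl had been added, whereas the others were given in saline. The PFCx sample took in the cingulate, prelimbic and infralimbic cortex and part of the dorsal peduncular cortex. The labels do not say whether a number stands for 1 mouse, so the p-values measure the spread between these libraries.

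Sequenced depth, estimated from transcript coverage, ran from 1.52 to 3.26 gigabases per library, with a median of 2.39. The labels give a set only for saline, and the drugs were placed in a set by the number of transcripts above 0 in the NAc. Haloperidol, risperidone, methamphetamine and saline I had 85287–87827 such transcripts, and mianserin, venlafaxine, ketamine and saline II had 107099–110556. In the NAc the drug and the sample set therefore cannot be told apart when all 8 saline libraries are the control, and the F tests and the single-drug calls are therefore given again with the 4 saline libraries of the same set, here called own-set saline. In the PFCx the number of transcripts did not separate the sets. The 4 PFCx libraries of set I with number 4 stood apart: Hspa8 was 196.9–214.4 FPKM in them and 244.6–343.8 in the other 12 of the set, Hsp90aa1 was 80.9–89.5 against 112.4–151.7, and Rbm3 was 8.35–10.97 against 10.94–16.1. Without those 4 libraries the counts of called members below were the same. The tissues carried their defining markers: 8 medium spiny neuron genes summed to 448–729 FPKM in NAc and 22.2–78.8 in PFCx libraries, and 6 cortical projection neuron genes to 22.4–78.3 and 147–210. No marker was at 0 in every library of either tissue.

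After saline the heat shock members spanned a wide range of levels, and 6 of the 8 were higher in the PFCx than in the NAc. Levels are given as FPKM, fragments scaled to transcript length and to the mapped reads of the library, summed over the transcripts of a gene, and each mean is given ± SD over n = 8 saline libraries. Dnajb1, a cofactor that hands clients to Hsp70, had 8.45 ± 0.757 FPKM in the PFCx and 5.26 ± 0.5263 in the NAc, which was 1.60 times as much (limma adjusted p = 1.75e-12). Hsp90aa1, the inducible cytosolic Hsp90, was at 133 ± 23.1 in the PFCx and 87.2 ± 12.02 in the NAc (limma adjusted p = 1.04e-05). Hspa8, the constitutive Hsp70, was the most abundant of the 10 genes, at 295 ± 37.4 and 215 ± 20.03 FPKM (limma adjusted p = 3.18e-05). The saline ranges of the tissues did not overlap for Dnajb1 (7.57–9.88 FPKM in the PFCx and 4.51–5.97 in the NAc). They did overlap for Hsp90aa1 (83.8–163 and 71.4–105) and Hspa8 (214–334 and 182–240).

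Hsph1, an exchange factor of Hsp70, was at 41.0 ± 1.93 FPKM in the PFCx and 34.0 ± 3.73 in the NAc (limma adjusted p = 0.000394). The stress-inducible Hsp70 genes were low in both tissues. Hspa1a was at 0.818 ± 0.152 and 0.557 ± 0.212 FPKM (limma adjusted p = 0.00356) and Hspa1b at 0.884 ± 0.173 and 0.565 ± 0.233 (limma adjusted p = 0.00476). Cirbp was the only member that was higher in the NAc, at 16.2 ± 1.99 against 13.8 ± 1.05 FPKM (limma adjusted p = 0.0423). The Cirbp call was lost when any 1 of 9 saline libraries was left out (all 4 of saline I and number 1 of saline II in the NAc, and number 2 of saline I and numbers 2, 3 and 4 of saline II in the PFCx), whereas the other 6 passed in all 64 such fits. Against saline I alone 4 of the 7 passed (Hspa8, Hsph1, Dnajb1 and Hsp90aa1), and Cirbp did not pass with saline II alone either. Rbm3, Hspa5 and the small chaperone Hspb1 did not pass, with 11.99 and 12.2, 29.01 and 29.2, and 0.427 and 0.437 FPKM in the NAc and PFCx. The count of 7 of 10 stands beside 45.7% of all 36989 genes that passed in the same comparison. In bulk tissue fewer cells of a type and less RNA per cell cannot be told apart.

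**Figure D1:**
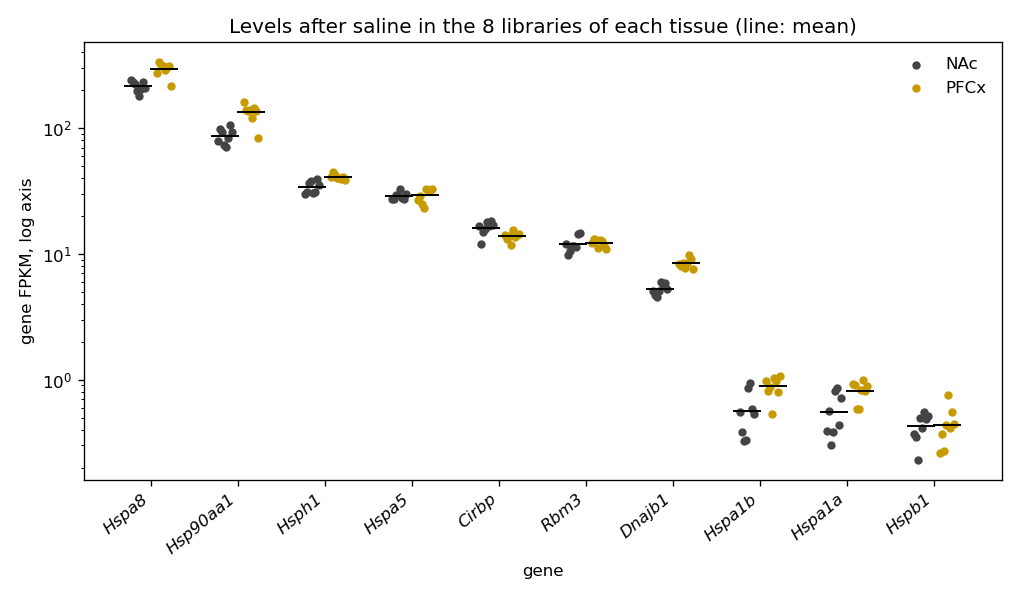
Gene level (FPKM, log axis) of the 10 genes in the 8 saline libraries of each tissue. Points are libraries and lines are means, and Hspa8 (215 and 295 FPKM) lies far above Hspa1a, Hspa1b and Hspb1, which stay near or below 1 FPKM.

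The F test over the 6 drugs asked whether any drug differed from the 8 saline libraries. In the NAc 6 of 10 members passed, beside 37.0% of all genes: Hspa5 (adjusted p = 6.9e-05), Hsph1 (0.0074), Cirbp (0.0075), Rbm3 (0.0347), Dnajb1 (0.0385) and Hspa8 (0.0456). Hspa5, Hsph1 and Cirbp passed in all 32 fits that left out 1 NAc library, Rbm3 in 27, Dnajb1 in 26 and Hspa8 in 11. Only the first 3 passed without haloperidol replicate 2 or without mianserin replicate 1. Against own-set saline 1 member passed, Hspa5 (adjusted p = 0.0325), beside 1.61% of all genes. In the PFCx 1 of 10 members passed, again Hspa5 (adjusted p = 0.0217), beside 3.35% of all genes, and it was lost without methamphetamine replicate 1, 2 or 3, when no member passed. Against own-set saline no PFCx member passed, with an adjusted p of 0.0987 for Hspa5, beside 1.45% of all genes. With own-set saline and a replicate block Cirbp passed in the PFCx, as given in the closing part.

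Of the 60 tests of 1 drug on 1 member in the NAc 2 passed, and 1 of 60 in the PFCx, and all 3 were of Hspa5. The share of all genes that passed in the NAc was 0.722% for haloperidol, 0.727% for risperidone, 0.195% for methamphetamine, 1.85% for mianserin, 1.82% for venlafaxine and 1.97% for ketamine. In the PFCx it was 0.162% for haloperidol, 0.511% for risperidone, 0.351% for methamphetamine, 0.676% for mianserin, 0.00541% for venlafaxine and 0.0162% for ketamine. Against own-set saline 0 of the 60 tests passed in either tissue. Of all 36989 genes, own-set saline in the NAc called 87 for haloperidol, 79 for risperidone and 33 for methamphetamine. It called 101 for mianserin, 3 for venlafaxine and 350 for ketamine. In the PFCx the numbers in this order were 8, 60, 59, 743, 274 and 560.

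**Figure D2:**
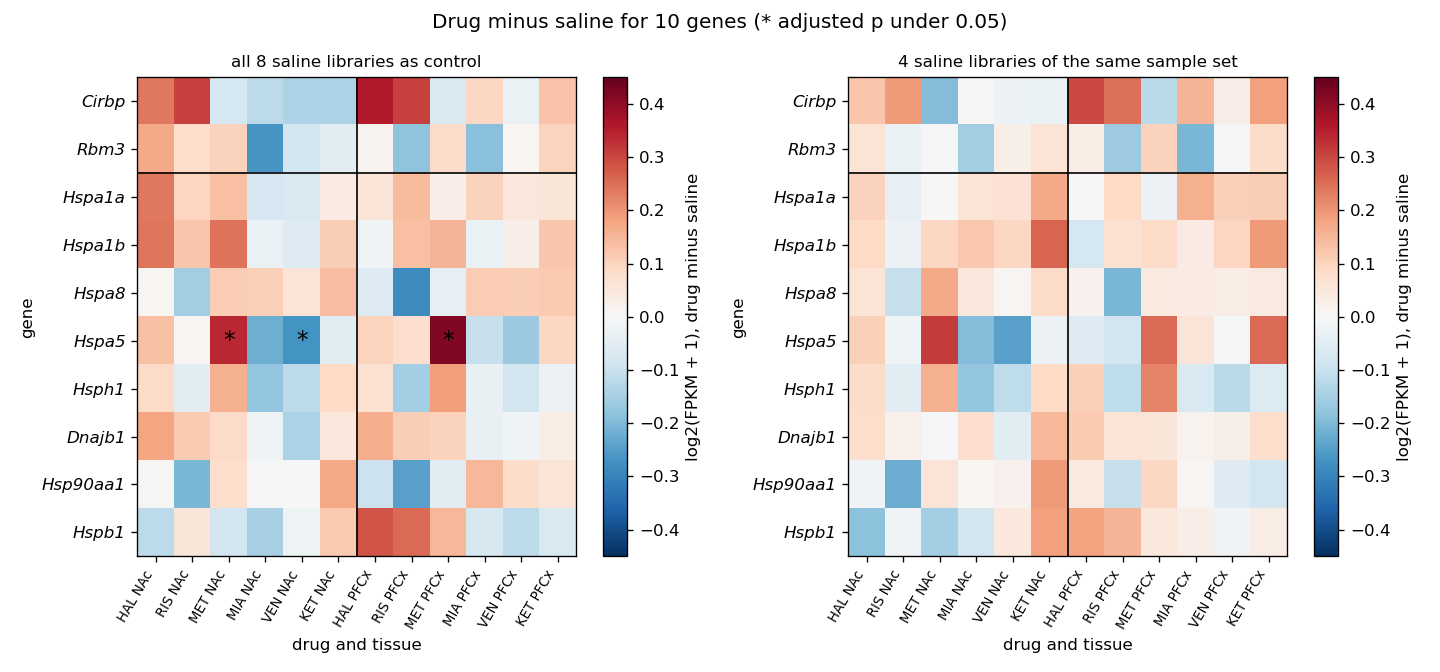
Difference of log2(FPKM + 1) between drug and saline for the 10 genes (rows) in 12 drug and tissue groups (columns; HAL haloperidol, RIS risperidone, MET methamphetamine, MIA mianserin, VEN venlafaxine, KET ketamine), with all 8 saline libraries on the left and own-set saline on the right. The 3 asterisks, all on Hspa5, mark an adjusted p under 0.05, and none is left on the right.

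Cirbp (chr10:80165985-80172786 in GRCm38, + strand) encodes the cold-inducible RNA-binding protein. RefSeq promoters, which hold 250 bases before and 50 after a start of transcription, were found for 7 of the 10 members, in 10 promoters. Rbm3, Hspa8 and Hsp90aa1 are not among them. Searched on both strands, the motif TCCCCGCC, a mild cold response element, was in 5.38% of 32851 promoters. It is shown in capitals in the first Cirbp promoter (RefSeq, GRCm38.p6), 247 bases before the start.
Cirbp, chr10:80167589-80167888, + strand: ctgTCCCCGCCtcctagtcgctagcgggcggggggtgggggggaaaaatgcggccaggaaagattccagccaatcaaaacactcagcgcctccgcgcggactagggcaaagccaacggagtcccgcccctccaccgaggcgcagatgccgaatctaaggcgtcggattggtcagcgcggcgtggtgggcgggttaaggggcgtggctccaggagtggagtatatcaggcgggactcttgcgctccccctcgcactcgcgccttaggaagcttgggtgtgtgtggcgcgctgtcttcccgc

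After the antipsychotics Cirbp was above every saline library in the PFCx. The 8 saline libraries held 15.4, 13.6, 14.2 and 14.4 FPKM in set I and 14.1, 13.1, 13.8 and 11.8 in set II. Haloperidol libraries held 19.2, 17.4, 16.7 and 18.3, a difference of 0.36 on the log2(FPKM + 1) scale (SE 0.10, 95% interval 0.14 to 0.57), which did not pass (adjusted p = 0.140). Risperidone libraries held 15.8, 16.8, 16.7 and 19.99 FPKM, a difference of 0.31 with an adjusted p of 0.167. So all 4 libraries of each drug lay outside the saline range, and neither difference passed over all genes. Both drugs were placed in set I, whose saline mean of 14.4 FPKM was above the 13.2 of set II. Against own-set saline the F test of Cirbp in the PFCx did not pass (adjusted p = 0.234). Both drugs also had HCl in the vehicle, and its part was not tested.

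In the NAc the saline sets of Cirbp did not overlap, with 17.8, 16.7, 18.3 and 17.0 FPKM in set I and 16.5, 11.95, 15.0 and 15.8 in set II. Risperidone libraries held 18.2, 18.4, 22.4 and 21.7 FPKM, with a log2 difference of 0.31 from all saline and 0.19 from own-set saline (adjusted p = 0.173 and 0.883). Haloperidol libraries held 19.6, 21.3, 14.6 and 21.8 FPKM, with log2 differences of 0.24 and 0.12 (adjusted p = 0.253 for the first). Of the haloperidol libraries 3 were above every saline library and the lowest was inside the saline range. After methamphetamine, mianserin, venlafaxine and ketamine Cirbp was at 12.9–17.3 FPKM in NAc and at 10.8–19.4 in PFCx libraries, and no difference passed.

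Rbm3 (chrX:8138975-8145880, - strand) encodes the second cold-inducible RNA-binding protein. In the NAc its saline libraries held 11.6, 11.3, 14.4 and 14.5 FPKM in set I and 11.9, 9.82, 10.6 and 11.6 in set II. Mianserin libraries held 8.75, 11.9, 9.74 and 8.85 FPKM, a log2 difference of -0.27 (SE 0.10, 95% interval -0.46 to -0.07) with an adjusted p of 0.115, and of -0.16 from own-set saline (adjusted p = 0.774). Of the 4 libraries 3 lay below all saline libraries. The PFCx mianserin libraries held 8.35, 13.5, 9.73 and 11.3 FPKM, against 10.9–13.1 after saline, with 2 below and 1 above that range. The gene overlaps Rbm3os on the opposite strand, at 0.284 and 0.479 FPKM in the NAc and PFCx, and the handling of strand is not given in the sources used here.

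Hspa1a (chr17:34969190-34972156) and Hspa1b (chr17:34956436-34959238), both on the - strand, are the inducible Hsp70 genes on which heat shock factors act. They are near-identical copies: 47.1% of the 100-base windows of the Hspa1a transcript and 49.9% of those of Hspa1b occur in the other, and 296 of 300 promoter bases are equal. The split of reads between them is therefore uncertain. The Hspa1a promoter is shown with its matches in capitals, the heat shock element of 2 units (GAANNTTC or TTCNNGAA, in 15.1% of promoters) 104 bases before the start and the mild cold response element 137 bases before it. Both matches lie at the same places in the Hspa1b promoter.
Hspa1a, chr17:34972107-34972406, - strand: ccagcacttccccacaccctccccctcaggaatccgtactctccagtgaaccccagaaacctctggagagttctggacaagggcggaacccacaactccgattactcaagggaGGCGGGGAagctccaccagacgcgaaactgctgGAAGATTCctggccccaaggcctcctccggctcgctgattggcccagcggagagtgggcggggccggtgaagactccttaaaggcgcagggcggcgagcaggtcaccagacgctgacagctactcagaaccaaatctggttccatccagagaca

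Hspa1a stayed at low level in every group. In the NAc it was 0.809, 0.852, 0.434 and 0.722 FPKM in saline I and 0.389, 0.563, 0.304 and 0.385 in saline II, so that the sets differed 1.72-fold in their means. Haloperidol libraries held 0.982, 0.876, 0.726 and 0.712 FPKM, with a log2 difference of 0.24 (SE 0.09) from all saline and of 0.10 from own-set saline (adjusted p = 0.2004 for the first). With Hspa1a and Hspa1b summed, the log2 difference after haloperidol was 0.34 (adjusted p = 0.203), and after methamphetamine 0.28 (adjusted p = 0.364). No drug passed for either gene or for the sum in either tissue. Over all PFCx libraries Hspa1a ran from 0.587 to 1.17 FPKM. Gm20481 overlaps Hspa1a on the opposite strand, at 0.352 and 0.578 FPKM in the NAc and PFCx.

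Dnajb1 (chr8:83608193-83612653, + strand) had saline sets in the NAc that did not overlap, with 5.97, 5.69, 5.83 and 5.24 FPKM in set I and 5.08, 4.74, 4.51 and 5.04 in set II. After haloperidol it was 6.03, 6.63, 5.78 and 5.82 FPKM in the NAc, a log2 difference of 0.18 from all saline and of 0.08 from own-set saline (adjusted p = 0.228 for the first). In the PFCx haloperidol libraries held 11.2, 9.08, 8.91 and 9.26 FPKM, against 7.57–9.88 after saline (log2 difference 0.17, adjusted p = 0.303). The haloperidol and saline libraries overlapped in both tissues.

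Hsph1 (chr5:149614287-149636376, - strand) encodes Hsp110. Of the 10 promoters 2 held the heat shock element of 3 units (either 2-unit motif followed, after NN, by 1 more inverted unit, in 0.603% of promoters), and both were of Hsph1. These 2 promoters overlap and hold the same match, so it is 1 element of 1 gene. The first promoter is shown with the match of 3 units, which starts 37 bases after the start of transcription, and the separate match of 2 units 33 bases before that start in capitals.
Hsph1, chr5:149636287-149636586, - strand: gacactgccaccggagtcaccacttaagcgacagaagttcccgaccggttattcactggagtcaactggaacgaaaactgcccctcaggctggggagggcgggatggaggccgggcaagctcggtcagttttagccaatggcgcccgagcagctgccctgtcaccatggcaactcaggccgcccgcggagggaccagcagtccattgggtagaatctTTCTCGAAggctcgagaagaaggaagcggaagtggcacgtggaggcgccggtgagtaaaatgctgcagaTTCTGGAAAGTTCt

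After methamphetamine Hsph1 was at 38.3, 36.9, 37.2 and 39.4 FPKM in the NAc, within the range of its saline libraries (30.5, 31.1, 39.4 and 35.0 in set I and 30.1, 31.1, 36.4 and 38.2 in set II), with a log2 difference of 0.16 from all saline and from own-set saline (adjusted p = 0.355 and 0.795). The PFCx methamphetamine libraries held 53.1, 53.3, 44.3 and 38.0 FPKM, against 38.5–44.8 after saline, with a log2 difference of 0.19 (adjusted p = 0.521) and of 0.22 from own-set saline. The 2 highest of these libraries lay above every saline library and the lowest below all of them. That lowest one is number 4, from the libraries that stood apart, without which the difference from all saline was 0.27. In the NAc mianserin libraries held 29.3, 29.7, 31.4 and 29.03 FPKM (log2 difference -0.17, adjusted p = 0.130, and 0.563 against own-set saline). So Hsph1 passed the F test in the NAc with no single drug past the threshold.

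Hspa8 (chr9:40800984-40810087, + strand) and Hsp90aa1 (chr12:110690605-110702728, - strand) are the abundant cytosolic chaperones. Hspa8 was at 178–262 FPKM over the 32 NAc libraries and no single drug passed. The largest difference from saline in the PFCx was after risperidone, with 245, 264, 263 and 197 FPKM against 214–334 (log2 difference -0.28, SE 0.13, adjusted p = 0.310). Hsp90aa1 after risperidone was at 113, 146, 112 and 80.9 FPKM in the PFCx, against 83.8–163 after saline (log2 difference -0.24, adjusted p = 0.499). Against own-set saline these differences were -0.21 and -0.10. In both cases the lowest risperidone library is number 4, and without those libraries the differences from all saline were -0.25 and -0.19. The Hspa8 gene holds Snord14c, Snord14d and Snord14e, snoRNA genes on the same strand.

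Hspb1 (chr5:135887919-135889563, + strand), a small chaperone, was the least abundant member. In the PFCx it was 0.588, 1.03, 0.770 and 0.600 FPKM after haloperidol, against 0.752, 0.415, 0.552 and 0.443 in saline I and 0.261, 0.373, 0.271 and 0.434 in saline II. The log2 difference was 0.28 (SE 0.13, 95% interval 0.02 to 0.54) and did not pass (adjusted p = 0.315, and 0.935 against own-set saline). Of the 4 haloperidol libraries 2 were above every saline library and 2 within the saline range.

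Hspa5 was the one member with single-drug changes, and it rose after methamphetamine in both tissues and fell after venlafaxine in the NAc when all saline libraries were the control. It lies at chr2:34771970-34777547 on the + strand. Its promoter is shown with the endoplasmic reticulum stress element (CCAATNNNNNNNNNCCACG, in 0.119% of promoters) in capitals, 65 bases before the start.
Hspa5, chr2:34771840-34772139, + strand: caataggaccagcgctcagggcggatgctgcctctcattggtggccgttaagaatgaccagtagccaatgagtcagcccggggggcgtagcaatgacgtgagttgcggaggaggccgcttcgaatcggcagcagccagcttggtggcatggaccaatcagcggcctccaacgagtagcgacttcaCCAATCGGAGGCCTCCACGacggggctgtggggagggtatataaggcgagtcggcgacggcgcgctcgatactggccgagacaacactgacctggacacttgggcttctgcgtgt

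In the NAc Hspa5 was 41.8, 34.4, 36.8 and 35.0 FPKM after methamphetamine, against 33.0, 27.9, 27.5 and 29.7 in saline I and 27.3, 27.5, 29.5 and 29.6 in saline II. All 4 methamphetamine libraries were above all 8 saline libraries. The means differed 1.27-fold (log2 difference 0.34, SE 0.07, adjusted p = 0.0246). Against own-set saline the log2 difference was 0.31 and did not pass (adjusted p = 0.198). The call was lost without methamphetamine replicate 1 or 3 (adjusted p = 0.194 and 0.0791) or without saline II replicate 1 or 2 (0.0581 and 0.0542). It was also lost with a pseudocount of 0.1 (0.0828), rescaling to the 75th percentile (0.0901) or saline I alone (0.286).

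In the PFCx Hspa5 was 40.5, 43.1, 38.4 and 34.6 FPKM after methamphetamine, against 32.7, 32.4, 32.2 and 32.7 in saline I and 26.8, 28.9, 24.8 and 23.0 in saline II. Again all 4 were above all saline libraries, while the saline sets themselves did not overlap and differed 1.26-fold. The means differed 1.34-fold (log2 difference 0.42, SE 0.10, adjusted p = 0.0447), and against own-set saline 1.204-fold (log2 difference 0.26, adjusted p = 0.616). Leaving out 1 library ended the call in 20 of 32 fits. These were methamphetamine replicates 1, 2 and 3 and all 4 replicates of saline II (adjusted p from 0.0765 to 0.215), and 13 libraries of other drugs (0.0508 to 0.0565). The 13 were haloperidol 1, 2 and 4, ketamine 2 and 3, mianserin 2, 3 and 4, risperidone 1 and 2, and venlafaxine 1, 2 and 3. The call was also lost with a pseudocount of 0.1 (0.134), no filter on low values (0.0530), a mean-variance trend (0.0518) or saline I alone (0.633).

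After venlafaxine Hspa5 was 23.6, 24.1, 24.8 and 23.0 FPKM in the NAc, and all 4 were below every saline library. The means differed 0.823-fold (log2 difference -0.27, SE 0.07, adjusted p = 0.0439), and against own-set saline the log2 difference was -0.25 (adjusted p = 0.684). The call was lost in 13 of 32 fits that left out 1 library: venlafaxine 1, 3 and 4 and saline I 1 to 4 (adjusted p from 0.0762 to 0.153), and haloperidol 2 and 4, methamphetamine 3 and 4, and risperidone 2 and 3 (0.05002 to 0.0514). It was also lost with a pseudocount of 0.1 (0.0614), a mean of at least 1 FPKM (0.0537), rescaling to the 75th percentile (0.107) or saline II alone (0.777). In the same comparison 1 of 8 medium spiny neuron, 1 of 6 microglia and 1 of 5 blood marker genes fell, and none did against own-set saline. The blood genes summed to 31.99–52.7 FPKM after venlafaxine and 40.2–102 after saline, and the medium spiny neuron genes to 480–644 and 533–725. Their part in the fall of Hspa5 was not tested. Mianserin libraries, from the same set, held 23.7, 25.7, 27.8 and 22.1 FPKM (log2 difference -0.22, adjusted p = 0.0812). The venlafaxine libraries of the PFCx held 24.1, 25.0, 24.7 and 29.3 FPKM, inside the saline range.

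**Figure D3:**
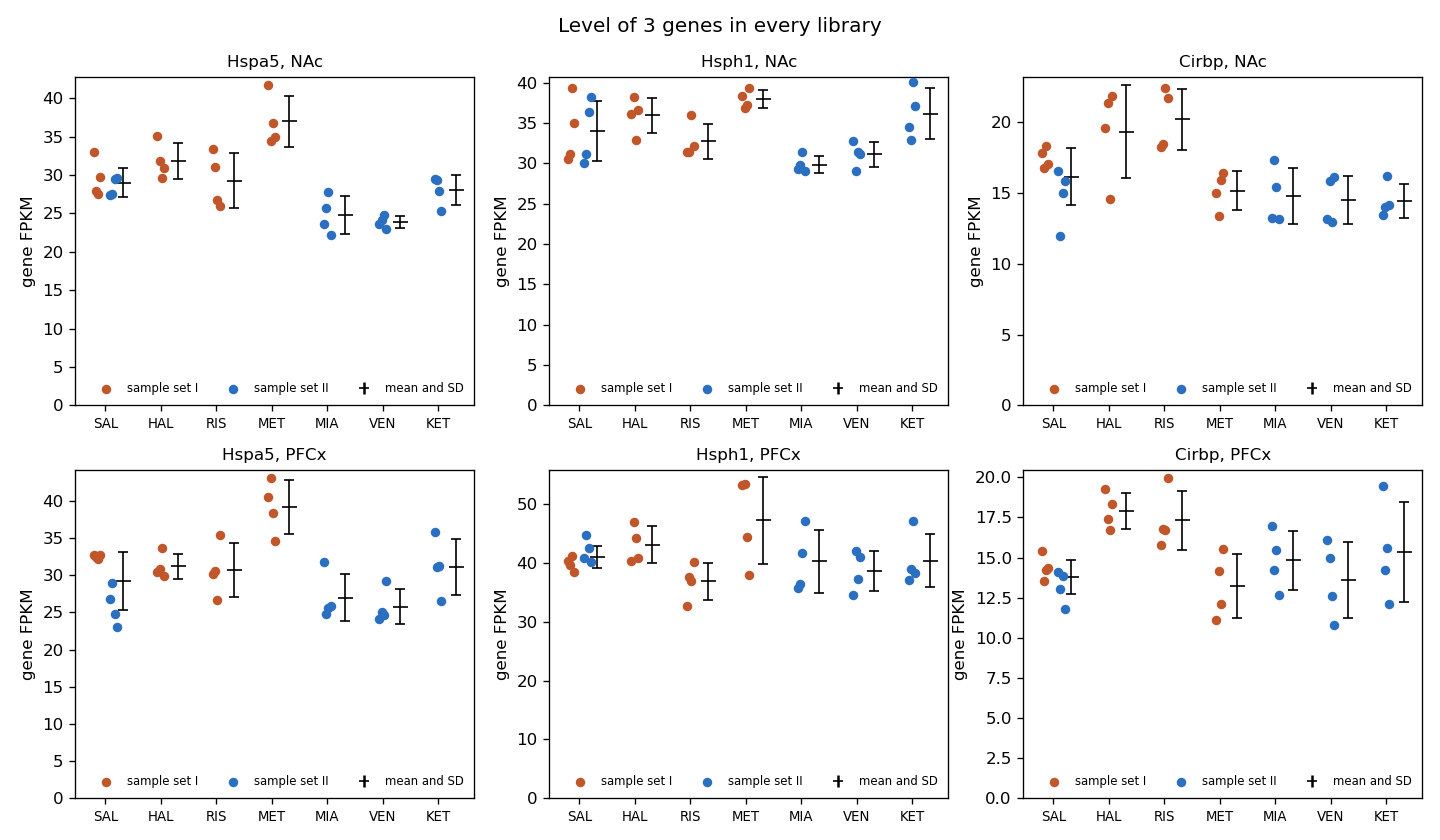
Gene FPKM of Hspa5, Hsph1 and Cirbp in every library of the NAc (top) and PFCx (bottom), by treatment (SAL saline; drugs as abbreviated above), colored by sample set, with mean and SD. The methamphetamine libraries of Hspa5 (34.4–41.8 FPKM in the NAc, 34.6–43.1 in the PFCx) lie above all saline libraries, and the Cirbp libraries after haloperidol and risperidone do so in the PFCx.

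The difference of drug effects between the tissues was tested in 1 model over both. No member passed (lowest adjusted p = 0.130, for Hspb1), beside 12.9% of all genes. Without PFCx ketamine replicate 2, whose Hspb1 level of 0.940 FPKM stood far from the other 3 (0.188–0.236), Hspb1 passed. For Hspa5 the methamphetamine effect differed by -0.08 on the log2 scale, NAc minus PFCx (adjusted p = 0.892).

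The cold-induced members were set against the heat shock members in each library, as the mean of log2(FPKM + 1) over the first less that over the second, centered on the saline mean of the tissue. The heat shock mean includes Hspa5, of the separate unfolded protein response, and no value was formed without it. In the NAc the mean was 0.19 after risperidone and 0.11 after haloperidol, with all 4 libraries of each above 0. It was -0.18 after ketamine, with all 4 below 0, -0.12 after methamphetamine and after mianserin, and -0.04 after venlafaxine. The 8 saline libraries had an SD of 0.14 and ran from -0.30 to 0.14, so that the 4 risperidone libraries (0.15 to 0.28) lay above them and those of the other drugs overlapped them. Against own-set saline the mean after haloperidol was 0.05, with 2 of 4 libraries above 0. It was 0.14 after risperidone, -0.18 after methamphetamine, -0.06 after mianserin, -0.12 after ketamine and 0.02 after venlafaxine, where the sign turned.

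The PFCx mean was 0.12 after haloperidol, with all 4 libraries above 0, and between -0.11 (methamphetamine) and 0.06 (ketamine) after the other drugs. The saline libraries had an SD of 0.06 and ran from -0.08 to 0.08. Haloperidol libraries at 0.04 and 0.07 lay inside that range, and those at 0.18 and 0.19 above it. After haloperidol the log2 difference from saline was 0.36 for Cirbp and 0.02 for Rbm3, neither past the test. Without the number 4 libraries these were 0.35 and 0.15 (3 haloperidol and 7 saline libraries).

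**Figure D4:**
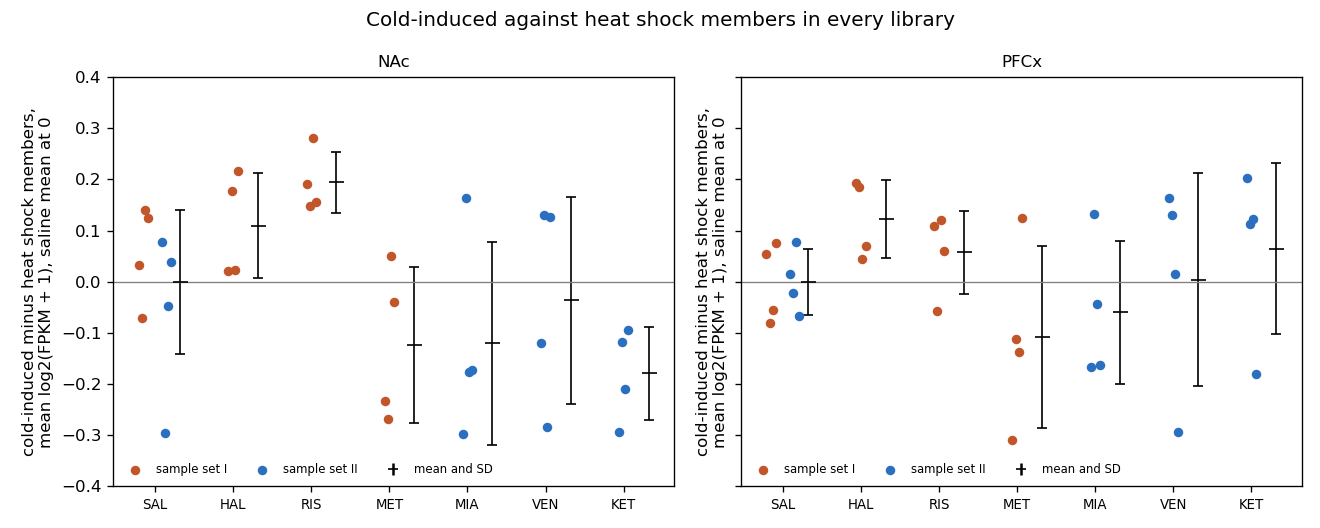
Mean log2(FPKM + 1) of Cirbp and Rbm3 less that of the 8 heat shock members in every library, with the saline mean of the tissue at 0, by treatment and colored by sample set, with mean and SD. In the NAc the 4 risperidone libraries (0.15 to 0.28) lie above the saline range and the 4 ketamine libraries below 0.

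Mianserin altered the make-up of Cirbp transcripts in the NAc. The share of Cirbp-205 (ENSMUST00000147190) in Cirbp FPKM was 4.28, 3.52, 0.592 and 2.62% after mianserin, against 11.7, 8.81, 12.4 and 8.01% in saline I and 10.9, 11.6, 8.70 and 16.2% in saline II. All 4 mianserin libraries were below all others of the tissue, which held at least 5.36%. The share of Cirbp-205 fell by 0.178 on the arcsine square-root scale (limma adjusted p = 0.00412) and by 0.190 from own-set saline (adjusted p = 0.0340). In this test 0.0371% of all 51264 transcripts passed, and 0.00585% against own-set saline. With 1 library left out the adjusted p was at most 0.0497, reached without mianserin replicate 3. With saline II alone as the control of all 6 drugs it was 0.0744.

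Cirbp-205 has 2 exons and 593 bases, at chr10:80171982-80172698 (GRCm38), and is annotated as a retained intron. It starts downstream of the end of Cirbp-202, the main coding transcript, at chr10 position 80171655. Of its bases 161 lie in exons of Cirbp-201, a nonsense-mediated decay transcript, and none in exons of the other 5 transcripts. Its first exon holds 432 bases that are intron in Cirbp-201, followed by exon 7 of that transcript. The 300 bases around this border, from the GENCODE M21 transcript on GRCm38, are shown with the first 30 bases of the exon in capitals.
Cirbp-205, chr10:80172144-80172443, + strand: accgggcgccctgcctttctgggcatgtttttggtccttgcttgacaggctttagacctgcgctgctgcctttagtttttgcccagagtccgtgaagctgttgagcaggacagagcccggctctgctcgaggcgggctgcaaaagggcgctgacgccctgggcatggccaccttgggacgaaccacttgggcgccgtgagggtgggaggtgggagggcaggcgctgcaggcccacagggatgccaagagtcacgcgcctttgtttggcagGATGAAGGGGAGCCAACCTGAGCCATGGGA

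The level of Cirbp-205 itself was 0.567, 0.608, 0.0913 and 0.345 FPKM after mianserin in the NAc and 1.31–2.56 after saline. It fell by 0.99 on the log2(FPKM + 1) scale (adjusted p = 0.000128, beside 0.504% of transcripts that passed) and by 0.97 from own-set saline (adjusted p = 0.0027, beside 0.162%). Cirbp as a whole had a log2 difference of only -0.12 after mianserin (adjusted p = 0.523). The coding transcript Cirbp-202, with 7 exons and 1321 bases, made up 60.9, 62.3, 64.3 and 57.9% of the gene after mianserin, against 38.6–51.7% after saline, but did not pass (adjusted p = 0.0980).

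In the PFCx the share of Cirbp-205 after mianserin was 6.45, 3.09, 5.66 and 4.55%, against 6.31–13.0% after saline, and did not pass (adjusted p = 0.582). Of its 4 libraries 3 lay below all saline libraries. Whether the effect of mianserin on this share differed between the tissues was not tested.

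Rbm3-209 (ENSMUST00000141925, chrX:8142890-8145722), a retained-intron transcript of Rbm3 with 6 exons, was also low after mianserin. In the NAc its share was 10.9, 18.4, 8.44 and 11.04% after mianserin and 22.1–36.1% after saline (adjusted p = 0.0545, and 0.352 against own-set saline). Its level fell by 0.98 on the log2(FPKM + 1) scale in the NAc (adjusted p = 0.00384) and by 0.87 in the PFCx (adjusted p = 0.0316, beside 0.351% of transcripts that passed). Against own-set saline neither level passed, with log2 differences of -0.86 and -0.60 (adjusted p = 0.0767 and 0.180). All 4 NAc libraries had a share below all saline libraries. Its PFCx share was 13.8, 8.20, 6.62 and 8.45%, against 13.2–37.3% after saline, with 3 of 4 below. Mianserin was not alone: 3 of 4 venlafaxine libraries (15.6, 18.0 and 16.2%) and 2 of 4 ketamine libraries (17.5 and 17.4%) of the NAc, from the same sample set, were also below every saline library. So were 1 risperidone (18.9%) and 1 methamphetamine library (21.1%). In the PFCx 2 of 4 risperidone libraries (11.3 and 10.3%) and 1 venlafaxine library (11.6%) were.

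Summed over all retained-intron transcripts of a gene, the shares after mianserin were low. For the 4 of Cirbp the share in the NAc was 25.0 ± 3.76% after mianserin (SD, n = 4, from 19.9 to 28.8%) and 40.2 ± 3.71% after saline (n = 8, from 34.2 to 46.0%). For the 2 of Rbm3 it was 18.8 ± 6.49% and 37.0 ± 7.66%, with ranges of 11.1–25.0% and 28.4–50.6%. In the PFCx the means were 24.1 and 30.3% for Cirbp and 12.8 and 28.9% for Rbm3. These sums were formed after the values were seen and were not tested. Over all 16394 retained-intron transcripts the share of FPKM was 4.52–5.48% after mianserin in the NAc, within the 4.26–6.22% after saline.

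Over the 18 transcripts of Cirbp and Rbm3, the F test on shares passed for 4 in the NAc, beside 1.29% of all transcripts: Cirbp-205 (adjusted p = 0.00428), Rbm3-209 (0.00907), Rbm3-211 (0.0195) and Cirbp-202 (0.0471). Cirbp-202 passed in 7 of 32 fits with 1 library left out and the other 3 in all 32. Against own-set saline Cirbp-205 alone passed (adjusted p = 0.0185), beside 0.0312%. The 5 other Cirbp transcripts each made up at least 5% of the gene in a tissue, with mean shares of 4.59–12.4%. So did 6 other Rbm3 transcripts, with 4.94–24.6%, the most abundant being the coding transcript Rbm3-203. None of these 11 passed in either tissue. In the PFCx 0 passed, beside 0.0659%. On single transcript levels the F test at an adjusted p under 0.0001 passed for 0 of the 57 transcripts in either tissue, beside shares of all transcripts of 0.120% (NAc) and 0.0336% (PFCx). Cirbp-205 in the NAc was the lowest (adjusted p = 0.000234).

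**Figure D5:**
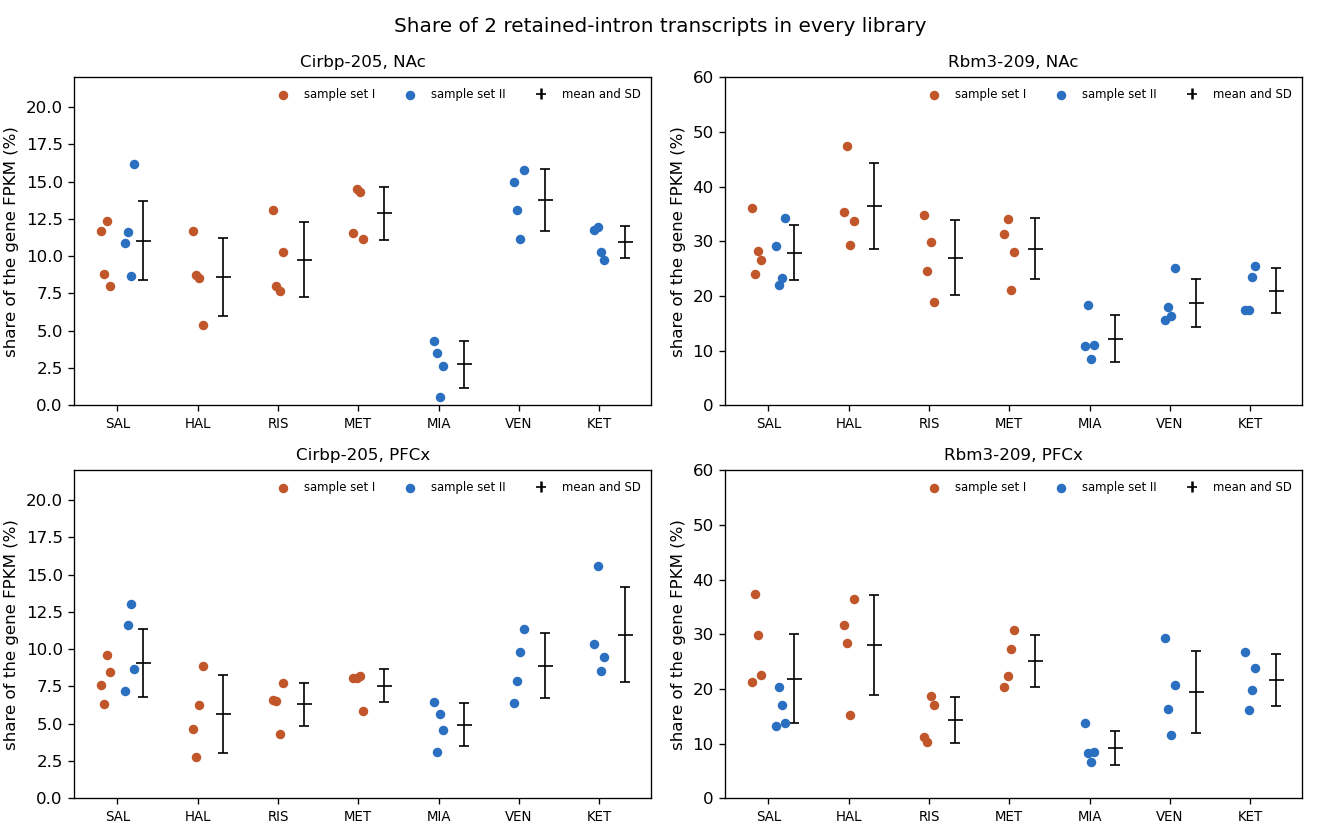
Share (%) of the retained-intron transcripts Cirbp-205 and Rbm3-209 in the FPKM of their gene, in every NAc (top) and PFCx (bottom) library, by treatment and colored by sample set, with mean and SD. In the NAc the 4 mianserin libraries of Cirbp-205 (0.592–4.28%) lie below all other libraries.

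Other genes of the chaperone network were taken from 3 lists. In the NAc the F test passed for 14 of 28 other chaperone genes, 7 of 17 endoplasmic reticulum stress genes and 5 of 8 cold-linked genes, beside the 37.0% of all genes, and for 1, 0 and 0 against own-set saline. The PFCx counts were 1, 3 and 1, beside the 3.35% of all genes, and 1, 0 and 0 against own-set saline. Of single-drug tests in the NAc, 1 chaperone gene rose after each of haloperidol, risperidone, methamphetamine and mianserin and 2 after ketamine, 1 fell after each of mianserin and venlafaxine, and 2 endoplasmic reticulum stress genes fell after mianserin. The share of all genes called after these drugs ran from 0.195% (methamphetamine) to 1.97% (ketamine), as given above, and against own-set saline none of these list genes was called. In the PFCx 1 chaperone gene rose after each of risperidone and methamphetamine, and against own-set saline 1 after each of mianserin and ketamine instead. No cold-linked gene passed after a single drug in either tissue.

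The chaperone that passed the F test against own-set saline in the NAc was Chordc1, an Hsp90 cochaperone chosen here after its values were seen (adjusted p = 0.0119). It was at 4.38 ± 0.541 FPKM after saline (SD, n = 8), 5.15 ± 0.546 after methamphetamine and 3.50 ± 0.356 after mianserin (n = 4 each), and no single drug passed. Dnajb5, an Hsp40 cochaperone, had an F test adjusted p of 0.133 against own-set saline in the NAc but single-drug calls in both tissues. In the NAc it ran from 20.7 to 26.4 FPKM after haloperidol (median 23.9) and from 10.5 to 16.7 after saline (median 15.3), so that the groups did not overlap. It rose after haloperidol (log2 difference 0.70, adjusted p = 0.00297), risperidone (0.56, adjusted p = 0.0256) and methamphetamine (0.57, adjusted p = 0.0433). Against own-set saline none of these passed, with 0.62 and an adjusted p of 0.0659 after haloperidol. In the PFCx it rose after risperidone (0.52, adjusted p = 0.0265) and methamphetamine (0.50, adjusted p = 0.0428) against all saline. Against own-set saline in the PFCx it passed after mianserin (0.53, adjusted p = 0.0154) and ketamine (0.48, adjusted p = 0.0376) instead.

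In the NAc Hspb8, a small chaperone, rose after mianserin (log2 difference 0.52, adjusted p = 0.0113) and ketamine (0.42, adjusted p = 0.0404), with all 4 libraries of each above every saline library. Neither passed against own-set saline (adjusted p = 0.166 and 0.262). Pdia6, a disulfide isomerase, and Manf, a secreted stress protein, are endoplasmic reticulum genes like Hspa5. They fell after mianserin in the NAc, by 0.35 (adjusted p = 0.0268) and 0.47 (adjusted p = 0.0355) on the log2 scale, and neither passed against own-set saline. Over the 17 endoplasmic reticulum stress genes the median log2 difference after methamphetamine was 0.08 in NAc and 0.18 in PFCx samples, with no gene called, beside medians of -0.05 and -0.01 over all genes. The 28 other chaperone genes had a like median of 0.09 in the NAc. Against own-set saline the NAc medians were 0.07 for the endoplasmic reticulum stress genes and 0.03 for the other chaperone genes.

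The lowest adjusted p of the F test in the other genes named from the lists, all in the NAc, were 0.000691 for Stip1, a co-chaperone of Hsp90, and 0.000978 for Cryab, a small heat shock protein. Herpud1 and Calr, of the endoplasmic reticulum, had 0.0105 and 0.0109. Csdc2, Ybx1, Srsf5 and Carhsp1, of the cold-linked list, had 0.000653, 0.0115, 0.0228 and 0.0282. None of these 8 passed the F test against own-set saline. Stip1 fell after venlafaxine, with 9.35–12.9 FPKM against 13.4–20.9 after saline (log2 difference -0.46, adjusted p = 0.0348, and 0.695 against own-set saline). Dnajb2 fell after mianserin (-0.40, adjusted p = 0.0294) and Dnajb4, both of the Hsp40 family, rose after ketamine (0.26, adjusted p = 0.0490). Both were chosen after their values were seen, and neither passed against own-set saline. Marker genes moved with ketamine in the NAc: 2 of 6 oligodendrocyte and 1 of 6 cortical projection neuron genes rose and 1 of 8 medium spiny neuron genes fell, and against own-set saline 3 oligodendrocyte and 1 of 6 astrocyte genes rose. The oligodendrocyte genes summed to 716–785 FPKM after ketamine and 565–773 after saline. Their part in the ketamine differences of Hspb8 and Dnajb4 was not tested.

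After the saline mean of the same tissue and sample set was subtracted, the genes most like Cirbp over the 64 libraries, among 6411 genes of at least 5 FPKM in both tissues, were Btbd2 (Pearson r = 0.70), Ppp1r9b (0.70), Ddn (0.68), Hdgfrp2 (0.66) and Sptan1 (0.66). With Cirbp, Hspa8 had an r of -0.47 and Rbm3 of -0.01. The genes most like Hsph1 were Ddx50, Ranbp2 and Mcl1 (each 0.63), Zbtb11 (0.62) and Sfpq (0.62), and Hspa5 had an r of 0.43 with it. The libraries share tissue, sample set and depth, so these values describe likeness only.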

How the data were processed

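Ribo-depleted total RNA was sequenced on an Ion Proton instrument (single-end reads). The authors aligned reads with TopHat2 2.0.1 and Tmap and estimated transcripts with Cufflinks 2.2.1 and Ensembl models on GRCm38. The deposited values are FPKM and, used here only for depth, coverage (a signal value), per transcript and library; the handling of strand and of multi-mapped reads is not given in the sources used here. FPKM holds no counts, so no counting interval is given.

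FPKM was summed by gene symbol. Genes or transcripts with a mean of at least 0.1 FPKM in either tissue were tested on log2(FPKM + 1) with limma 3.58.1 (R 4.3.3), two-sided, separately by tissue, against all 8 saline libraries, with Benjamini-Hochberg adjustment over all 36989 genes or 86331 transcripts and a threshold of 0.05 (0.0001 for the transcript F test). A fold change on this scale understates that of low genes. Shares were tested on the arcsine square-root scale. On simulated data 191 of 200 genes shifted by 1 on the log2 scale were recovered in the NAc and 186 in the PFCx. For transcript levels shifted by 1 it was 125 and 144 of 200. For shares shifted by 0.2 on the arcsine scale it was 48 and 58 of 200. Smaller shifts were not simulated. Tables were made with Python 3.11.15 and pandas 2.3.3.

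Named were all members, Cirbp and Rbm3 transcripts with a mean share of at least 5% in a tissue, up to 4 genes per list with the lowest adjusted p and the 5 genes most like Cirbp and Hsph1. Rbm3-211 was named after its values were seen. The members and lists were chosen with earlier results of these data known. Alternatives were pseudocounts, filters, saline sets, rescaling to the 75th percentile, a mean-variance trend, a replicate block, the estimate status and leaving out each library. The fit without the 4 PFCx libraries and own-set saline with the block were added after seeing the data.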

Additional observations from a re-analysis of the deposited data

Results flagged for a closer look

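Of 140 groups of 4 or 8 libraries (a member in a tissue and treatment), 8 held a library far from the others, where chance gives about 7. The values are gene FPKM. Hspa5 was at 33.0 in NAc saline I replicate 1 (the other 7 saline libraries at 27.3–29.7) and at 31.7 in PFCx mianserin replicate 1 (others 24.8–25.8). Rbm3 was at 9.96 in PFCx venlafaxine replicate 4 (others 12.8–13.3). Hspa8 was at 262 in NAc ketamine replicate 1 (others 226–232). Hsph1 was at 36.0 in NAc risperidone replicate 3 (others 31.4–32.1). Dnajb1 was at 11.2 in PFCx haloperidol replicate 1 (others 8.91–9.26). Hsp90aa1 was at 86.5 in PFCx methamphetamine replicate 4 (others 141–152), 1 of the 4 PFCx libraries that stood apart. Hspb1 was at 0.940 in PFCx ketamine replicate 2 (others 0.188–0.236).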

How the results depend on the processing

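The number of members passing the F test in the NAc was 6 and became 3 with a pseudocount of 0.1 (Cirbp, Hspa5 and Hsph1), 1 with own-set saline and 1 with own-set saline and the replicate block. Leaving out 1 library gave 3 to 6. Of the 60 single-drug tests in the NAc 2 passed, and 0 with a pseudocount of 0.1, 1 with a mean of at least 1 FPKM, 0 with own-set saline, 4 with saline I only, 12 with saline II only, 0 with rescaling to the 75th percentile and 1 with own-set saline and the replicate block. Leaving out 1 library gave 0 to 2. With saline I or saline II alone, the drugs of the other sample set were compared across sets. The share of all genes called with either set alone, with the block or under the other alternatives except own-set saline was not computed. In the PFCx the F test count of 1 became 0 with a pseudocount of 0.1 and 0 with own-set saline, and was 0 to 1 with 1 library left out; with own-set saline and the replicate block it was 1, for Cirbp (adjusted p = 0.0235) in place of Hspa5. The single-drug count of 1 in the PFCx became 0 with a pseudocount of 0.1, no filter, own-set saline, a mean-variance trend, the replicate block, or own-set saline with the block, 2 with saline II only, and 0 to 1 with 1 library left out. The 4 transcript shares in the NAc became 1 with own-set saline, with or without the replicate block. Single transcripts passing in the NAc rose from 0 to 2 with saline I only and 1 with saline II only. The 7 differences between the tissues became 4 with saline I only and were 6 to 7 with 1 library left out. The 0 tissue differences of drug effects became 1 (Hspb1) without PFCx ketamine replicate 2.

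No call reversed under these alternatives. The level of cold-induced less heat shock members was also formed with 1 library left out. A mean of 4 libraries cannot then move by its SD, so the size of the move tests nothing. After venlafaxine this level ran across 0, from -0.09 to 0.05 in the NAc and from -0.05 to 0.10 in the PFCx. The replicate numbers were not taken as pairs: same-numbered libraries had a mean correlation of 0.14 and 0.07 in sets I and II of the NAc and 0.22 and 0.11 in the PFCx, and not every pair was over 0.1. Of 16 libraries in each set and tissue, 15, 13, 16 and 11 were most like their own number. This likeness was seen in the data, and the labels do not say what a number stands for. Fits without a block do not model it. With own-set saline and the replicate block the F test of Hspa5 in the NAc had an adjusted p of 0.00186. Without the block it was 0.0325. For Cirbp in the PFCx these values were 0.0235 and 0.234. With the replicate block and all saline libraries, 5 members passed the F test in the NAc and 1 in the PFCx. Hspa5 after methamphetamine in the PFCx then had an adjusted p of 0.0564, and the Cirbp-205 share had 0.00762. How depth limits the low genes Hspa1a, Hspa1b and Hspb1 was not tested.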
